A study of Danio rerio with 6 samples.

Results

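The strongest binding regions of the transcription factor Eomesa that were not called for Smad2 were examined in zebrafish blastulas. An Eomesa peak, a region bound above input in chromatin immunoprecipitation with sequencing (ChIP-seq), was counted here when it shared no base with any of the 898 Smad2 peaks and when the Eomesa track reached 44 tags or more inside it. A tag is a sequenced DNA fragment end, counted over a length that differs between tracks and is given below. The height of a peak is the largest number of tags piled up at 1 position within it. By this rule there were 268 strong lone Eomesa peaks among 6378 Eomesa peaks in all. They were part of 6019 lone peaks, that is, peaks without a Smad2 peak. Eomesa peaks of 44 tags or more made up 5.22% of the list, and the 65 of these 333 that did meet a Smad2 peak are called strong common peaks. The regions were chosen by their Eomesa height and by the lack of a Smad2 call, so both are given as description only.

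Eomesa is a zebrafish homologue of Eomesodermin, a T-box transcription factor that the mother loads into the egg and that takes part in the formation of endoderm. Smad2 is the protein that carries Nodal signals into the nucleus, where it does not bind DNA strongly on its own and relies on partner factors such as Foxh1 and T-box proteins. Nodal signalling specifies mesoderm and endoderm at the margin of the blastula, while cells away from the margin go on to form ectoderm.

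The study immunoprecipitated chromatin from AB strain embryos at high-sphere stage, with 2 reactions for Eomesa, 2 for Smad2 and 2 for input, which is chromatin that was not immunoprecipitated. Embryos were unmanipulated and whole, so that cells of the margin and of the animal pole were mixed in every library. Peaks found in both reactions were kept by the authors as 1 list per factor, and 1 track was deposited for each of Eomesa, Smad2 and input. No error between replicates can therefore be given, and the intervals below are 95% Wilson intervals over peaks that cover the counting of peaks only. The tracks held 12.3 M (mega) tags for Eomesa, 12.6 M for Smad2 and 19 M for input. Because a tag spanned 38.9 bp in the Eomesa track and 132 bp in the others, signals are set side by side only as multiples of the mean of their own track, and heights in tags are compared only within a track.

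Sequences that resemble the binding site of Foxh1, a forkhead factor and Smad2 partner, were listed by the study for some of these peaks, each 11 letters long. The last 8 letters are called the core here, a division that is not the study's. The held portion of that list covers 72 of the 268 regions, on chromosomes 1 and 10 to 17, and 29 of the 72 carry such a sequence (40.3%, 29.7 to 51.8), against 22.4% of all lone peaks and 19 of 27 strong common peaks in the held portion. Strong lone peaks are also broader than other lone peaks, as given below, and the part of width in this share was not tested. Among the 6 peaks near listed developmental genes, described below, those near zic2b and id1 carry no listed site. The following sites lie in strong lone peaks near developmental genes, except the last, which lies in a peak with a Smad2 peak close by. Letters 4 to 11 are in capitals and mark the core, and the strand and the place of the site within the peak are not given in the sources used here.
Eomesa_peak1311, near her5 and her11: gggAATACACA
Eomesa_peak628, near snai1a: ggtAATACACA
Eomesa_peak285, near aplnrb: ttgAATAAACA
Eomesa_peak1506, near dlc: accAATTCACA
Eomesa_peak1411, beside a Smad2 peak: agcAGTCCACA
The core AATACACA, shown in the first pair, was the most frequent and stood in 9 of the 29. AATAAACA, AATCAACA and AATCCACT stood in 4 each, AATTCACA in 3, AATCCACA and ATTACACA in 2 each, and AGTCCACA in 1. Cores were not counted in the other lone peaks, so these counts have no background and show no core to be particular to strong lone peaks. The T-box sites themselves were not searched for, as no genome of the build used by the study was at hand.

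Strong lone peaks were tall and broad. Their median height was 53 tags, with quartiles of 48 and 63 tags, and 39 of them reached 70 tags or more. The Eomesa track never exceeds 78 tags, and 13 regions stood at this ceiling, so that the order among the tallest cannot be read. At the lower edge 17 lone peaks had exactly 44 tags and 16 lone peaks with 43 tags were left out. Eomesa_peak960 (chromosome 13, 9842959 to 9843456), just inside, reached 44 tags with 10 Smad2 and 7 input tags, and Eomesa_peak1982 (chromosome 17, 25725890 to 25726349), just outside, reached 43 tags with 14 Smad2 and 8 input tags. The threshold therefore cuts a continuous range of heights.

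The width of the strong lone peaks had a median of 524 bp and ran between 78 and 1770 bp, against 611 bp in strong common peaks and 251 bp in other lone peaks. Around the summit, the stretch at 22 tags or above, which is the threshold divided by 2, had a median of 225 bp and quartiles of 120 and 340 bp in strong lone peaks, against quartiles of 205 and 375 bp in strong common peaks. Separate summits were counted as stretches at or above the peak's own height divided by 2. More than 1 was found in 177 of 268 strong lone peaks (66.0%, 60.2 to 71.5), against 69.9% of all lone peaks. In the 200 bp around the summit Eomesa averaged 112 times its track mean in strong lone peaks, 125 times in strong common peaks and 25.3 times in other lone peaks. Width, stretch and summit signal are related to height, which the rule used, so their differences from other lone peaks are description only. The level at which summits were counted moves with height, so the shares with more than 1 summit are description only as well.

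Smad2 at these regions was examined next, since the lack of a call does not mean the lack of signal. The Smad2 height had a median of 13 tags in strong lone peaks, with quartiles of 9 and 20.2 tags, against 32 tags in strong common peaks and 7 tags in other lone peaks. As a multiple of the track mean, the Smad2 signal over the peak had a median of 5.42 in strong lone peaks, 11.7 in strong common peaks and 3.38 in other lone peaks. Input was also higher in the strong lone class, with medians of 3.82 in strong lone peaks and 2.30 in other lone peaks, and it was 3.19 in strong common peaks. In tags, the input height had a median of 14 in strong lone peaks, 14 in strong common peaks and 7 in other lone peaks. Strong lone and strong common peaks thus had the same median input height, but not the same upper range. The upper quartiles were 21 tags in strong lone and 18 tags in strong common peaks, and the highest values 109 and 30 tags. Both classes also differed in the Smad2 track, by whose calls they were set apart.

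Smad2 was then divided by input at each peak. The ratio had a median of 1.48 in strong lone peaks (quartiles 0.783 and 2.26), 3.48 in strong common peaks and 1.44 in other lone peaks. Smad2 stood at 2 times input or more in 85 of 268 strong lone peaks (31.7%, 26.4 to 37.5), against 65 of 65 strong common peaks. The share over all lone peaks was 31.7% and over all Eomesa peaks 35.3%. On this share the 268 strong lone peaks as a class could not be told from lone peaks in general. Without the 64 of highest input, a cut chosen after seeing the data, the share was 38.7% of 204. It was not set against lone peaks cut in the same way. Smad2 lay below input in 92 strong lone peaks (34.3%, 28.9 to 40.2), where 30.5% of all lone peaks did so, and in 0 of 65 strong common peaks. Within the class, the tallest strong lone peaks had a lower ratio. At 70 to 78 Eomesa tags its median was 0.929, and Smad2 lay below input in 21 of 39 (53.8%). At 44 to 49, 50 to 59 and 60 to 69 tags the medians were 1.36, 1.69 and 1.55. Smad2 lay below input in 34.5%, 30.1% and 26.9% of these bins. The median input height was 20 tags at 70 to 78 Eomesa tags, and its part in the ratio was not tested. The absence of a Smad2 call limits the values of lone peaks from above, and a call above input limits those of strong common peaks from below. The counts in strong common peaks therefore largely follow from the rule, and the comparison with them was not tested for this reason.

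**Figure D1:**
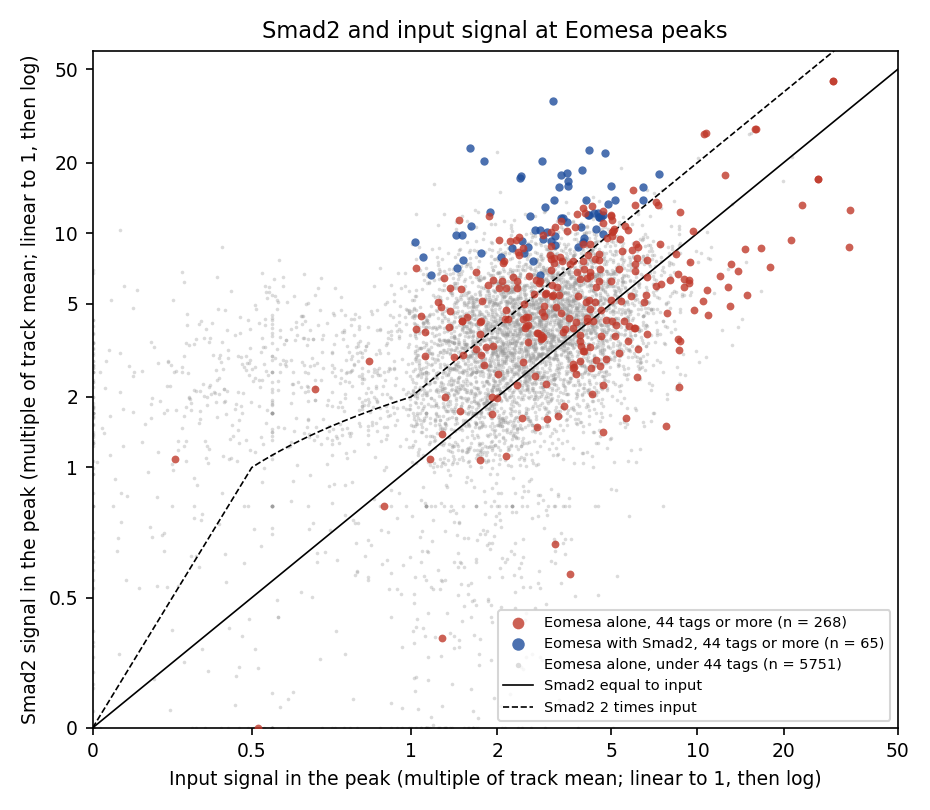
Mean Smad2 signal in each Eomesa peak (vertical) against mean input signal (horizontal), each divided by the mean of its track, on axes that are linear to 1 and logarithmic beyond. Red points are the 268 strong lone peaks, blue points the 65 strong common peaks and grey points the 5751 other lone peaks; the lines mark equality and 2 times input. All blue points lie above the dashed line, while 85 red points lie on or above it and 92 lie below the solid line.

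**Figure D2:**
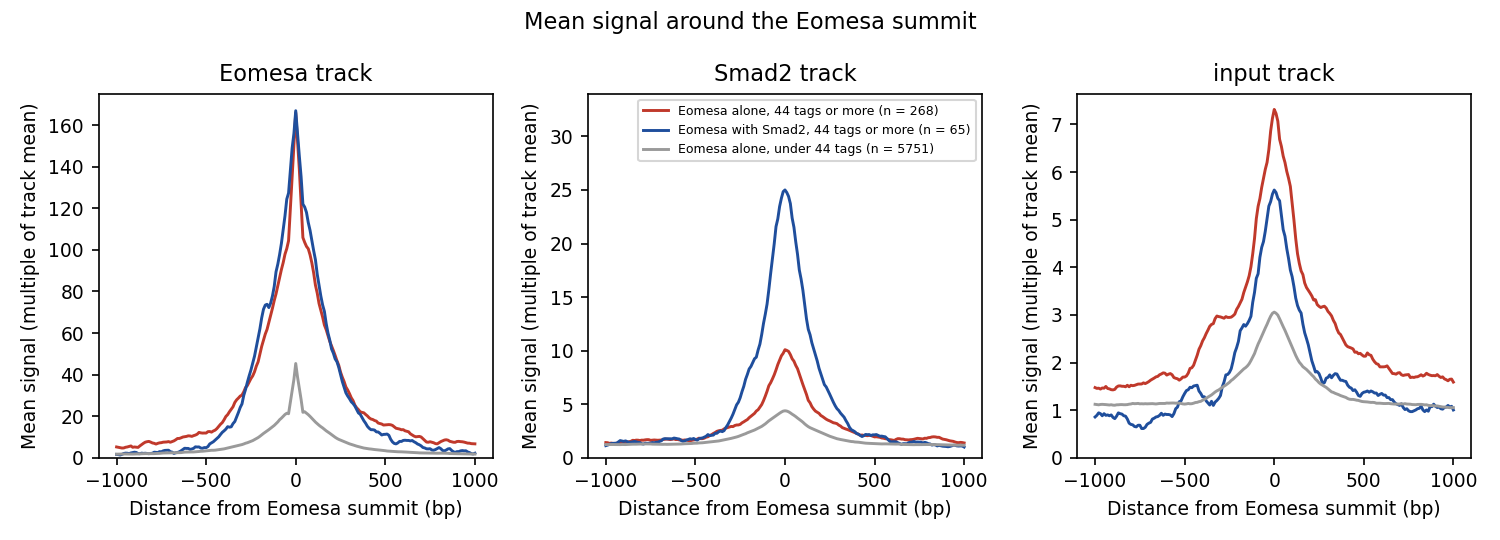
Mean signal within 1000 bp of the Eomesa summit in the Eomesa, Smad2 and input tracks, as multiples of the mean of each track, with a separate vertical axis for each. For Eomesa, strong lone peaks (red) and strong common peaks (blue) nearly meet at the summit itself. Strong common peaks are higher close beside it, and strong lone peaks are higher further out. Both part in the Smad2 track, where the 200 bp at the summit average 8.54 in strong lone and 20.9 in strong common peaks.

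In the mean profile, Smad2 averaged 8.54 times its mean over the 200 bp at the summit of strong lone peaks and 1.38 times at 1.5 to 2 kb away. The corresponding input values were 6.26 and 1.37, so that both tracks rose towards the Eomesa summit. At strong common peaks Smad2 averaged 20.9 times and input 4.80 times their means at the summit, and at other lone peaks 3.93 and 2.73 times. Summit signal over flanking signal was 6.18 for Smad2 and 4.56 for input in strong lone peaks, against 13.8 and 4.01 in strong common peaks. For Eomesa it was 36.1 in strong lone peaks and 62.4 in strong common peaks, and at 1.5 to 2 kb away Eomesa averaged 3.12 times its mean in strong lone and 2.01 times in strong common peaks.

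A tall Smad2 signal without a call was more frequent here than in lone peaks at large. The median height of the called Smad2 peaks was 16 tags, and 106 of 268 strong lone peaks (39.6%, 33.9 to 45.5) reached it, against 8.14% of all lone peaks. When 2 times input was required as well, 54 of 268 remained (20.1%, 15.8 to 25.4), against 5.22% of all lone peaks. Input height and peak width moved with the Smad2 height between these classes, as given above, and their part in the result was not tested. Eomesa_peak628 (chromosome 11, 26190252 to 26191174) was one of the 54, with 56 Eomesa, 34 Smad2 and 15 input tags and a Smad2 to input ratio of 3.21. The study lists it near snai1a, which encodes a zinc finger repressor of the Snail family that acts in mesoderm and in cell movements. A Smad2 peak lay 24.8 kb away.

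At the other end of the range, 27 of 268 strong lone peaks had 5 Smad2 tags or fewer (10.1%, 7.02 to 14.3), against 37.5% of all lone peaks. Such low Smad2 heights were thus less frequent here. A height is a maximum over the peak, and strong lone peaks were wider than other lone peaks (medians 524 and 251 bp). They also had higher input (medians 14 and 7 tags), while the Smad2 to input ratio was alike (medians 1.48 and 1.44). The part of width and input in this share was not tested. Eomesa_peak2831 (chromosome 2, 54442957 to 54443144) reached 65 Eomesa tags with 0 Smad2 tags and 1 input tag, and was the only strong lone peak without any Smad2 tag. It belonged to the largest cluster of strong lone peaks. The other peaks of the cluster were Eomesa_peak2829 with 70 Eomesa, 5 Smad2 and 6 input tags, Eomesa_peak2830 with 72, 2 and 3 tags, and Eomesa_peak2832 with 62, 2 and 4 tags in the same order. All 4 lay between 54441965 and 54444464 on chromosome 2 and had 62 to 72 Eomesa tags over at most 5 Smad2 and 6 input tags. On the scale of multiples of the mean, Smad2 was 0 to 1.98 and input 0.519 to 1.99 in them, so that they reached up to about 2 times the genome-wide level. Eomesa_peak5660 (chromosome 7, 77214013 to 77214369) had 54 Eomesa, 3 Smad2 and 13 input tags and completed the lowest Smad2 signals.

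Among the 13 regions at 78 tags, the 10 with the largest summed Eomesa signal showed a range of Smad2 and input heights. Eomesa_peak4406 (chromosome 3, 60429571 to 60431340) was the widest strong lone peak at 1770 bp, and had 11 Smad2 and 14 input tags. Eomesa_peak5665 (chromosome 8, 1482841 to 1484167), with 12 separate summits, had 7 Smad2 and 19 input tags. Input exceeded Smad2, on the scale of multiples of the mean, in 8 of these 10. The exceptions were Eomesa_peak5654 (chromosome 7, 76280868 to 76281994), with a ratio of 1.21, and Eomesa_peak248 (chromosome 1, 54020423 to 54021567), which had 26 Smad2 and 11 input tags and a ratio of 4.196. The remaining 6, Eomesa_peak4447, Eomesa_peak5951, Eomesa_peak4084, Eomesa_peak4726, Eomesa_peak4710 and Eomesa_peak3107, had input heights of 41 to 94 tags and ratios of 0.376 to 0.569. Input is not subtracted from the Eomesa height, and the part of input in these heights was not tested.

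**Figure D3:**
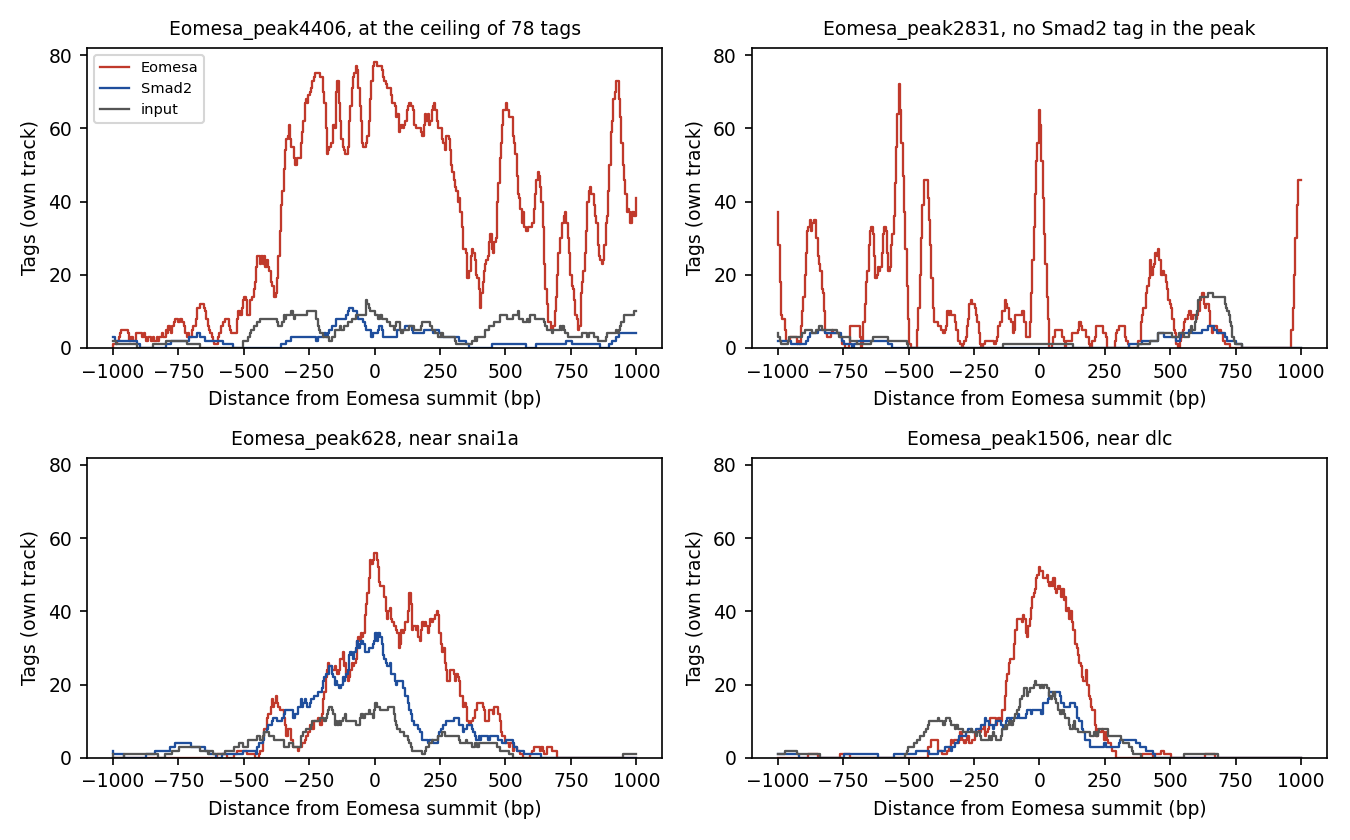
Tags in the Eomesa (red), Smad2 (blue) and input (grey) tracks within 1000 bp of the summit of 4 strong lone peaks, each track on its own tag scale. Eomesa_peak4406 stands at 78 Eomesa tags over a broad region. Eomesa_peak2831 is a narrow spike with 0 Smad2 tags in the peak, in a row with spikes of neighbouring peaks. Eomesa_peak628 near snai1a and Eomesa_peak1506 near dlc are broader mounds, with 2 summits and 1, and with 34 and 18 Smad2 tags.

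The spikes of the cluster on chromosome 2 were about as narrow as a pair of Eomesa tags. To see how frequent this was, peaks whose stretch at 22 tags or above was 80 bp or less were counted, a limit chosen after their values were seen. There were 45 such regions among the 268 (16.8%, 12.8 to 21.7) and 0 among the 65 strong common peaks, which allows a share of up to 4.62%. The same 45 are 13.5% of all 333 Eomesa peaks of 44 tags or more, which is therefore no separate background. Their median Eomesa height was 54 tags, against 53 tags in the 223 with a longer stretch. The stretch is measured around the summit only, and the peaks themselves were not narrow. Their median width was 359 bp, against 539 bp in the 223. Their Smad2 to input ratio had a median of 0.733, against 1.58 in the others. Smad2 lay below input in 27 of these 45, against 65 of 223 (29.1%) of the others. Within the strong lone peaks, those with the narrow stretch thus had less Smad2 for their input.

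The place of the strong lone peaks along the chromosomes was examined, which the rule did not use. On chromosomes 1 to 25 lay 256 of them, and 12 lay on 11 unplaced sequences of the assembly. Within 3 Mb (mega base pairs) of a chromosome end were 63 of 256 (24.6%, 19.7 to 30.2), against 581 of 5606 other lone peaks (10.4%, 9.59 to 11.2) and 11.1% of all Eomesa peaks on chromosomes. This stretch held 11.1% of the length of the 25 chromosomes. At strong common peaks the share was 13 of 64 (20.3%, 12.3 to 31.7), an interval that contains the share of strong lone peaks. A position near an end therefore went with Eomesa height and was not shown to be particular to peaks without Smad2. Within 1 Mb the shares were 31 of 256 strong lone peaks (12.1%, 8.66 to 16.7) and 205 of 5606 other lone peaks (3.66%), where all Eomesa peaks gave 4.07%. The peaks near ends were spread over 23 of the 25 chromosomes, with 6 on chromosome 21 as the largest number and none on chromosomes 1 and 2.

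Among lone peaks the share near an end was 10.1% at 10 to 19 tags, 10.5% at 20 to 29 tags and 12.7% at 30 to 43 tags. It was 18.8% at 44 to 49 tags, 20.7% at 50 to 59 tags, 25.5% at 60 to 69 tags and 45.9% (31.0 to 61.6) at 70 to 78 tags. The intervals of neighbouring bins overlapped from 30 tags upwards. Of the 12 regions at 78 tags that lay on chromosomes, 9 were within 3 Mb of an end. Examples are Eomesa_peak3107 (chromosome 21, 462369 to 463341), 0.462 Mb from the end, with 21 Smad2 and 63 input tags, and Eomesa_peak4447 (chromosome 4, 1016804 to 1018125), with 14 Smad2 and 41 input tags.

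**Figure D4:**
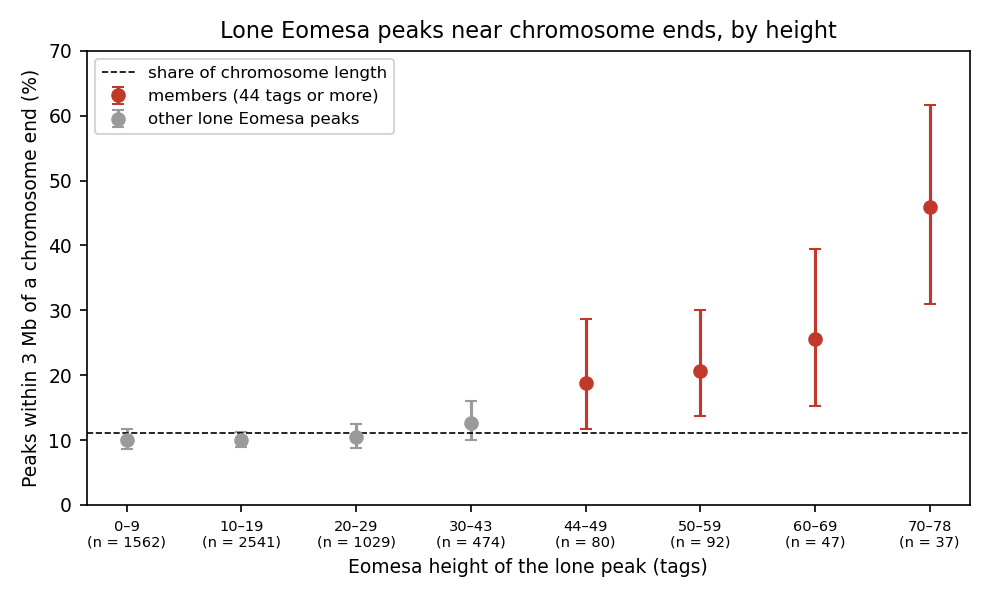
Share of lone Eomesa peaks on chromosomes that lie within 3 Mb of a chromosome end (vertical, %), by Eomesa height (horizontal, tags). Points carry 95% Wilson intervals over peaks, red for the strong lone peaks and grey for other lone peaks, and the dashed line is the 11.1% of chromosome length within this distance. Shares lie near the line up to 43 tags and reach 45.9% at 70 to 78 tags.

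Input moved with this position. The input height had a median of 22 tags in the 63 strong lone peaks near an end, against 13 tags in the 193 further away, and the Smad2 to input ratio had medians of 0.755 and 1.67. Smad2 lay below input in 40 of 63 (63.5%) near an end, against 50 of 193 (25.9%) further away. Smad2 height itself was alike, with medians of 12 tags near an end and 13 tags further away. Heights are maxima, while the ratio uses means over the peak, so which track carried the difference in ratio was not tested. Over the whole genome, the last 3 Mb of the chromosomes carried 1.36 times the mean of the input track, 1.18 times that of Smad2 and 1.57 times that of Eomesa. Among peaks with an input height of 21 tags or less, the upper quartile of strong lone peaks, 30 of 193 strong lone peaks (15.5%, 11.1 to 21.3) lay near an end, against 10.2% of all lone peaks. Above 21 input tags the shares were 33 of 63 (52.4%, 40.3 to 64.2) and 35.4%, where all lone peaks include these 63. Other lone peaks above 21 input tags gave 29 of 112 (25.9%, 18.7 to 34.7). The regions with a stretch of 80 bp or less lay near an end in 21 of 44 cases (47.7%), against 42 of 212 (19.8%) of those with a longer stretch. The part of input and of narrow stretches in the share near chromosome ends was not tested.

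The 3 regions with the highest input lay within 3 Mb of a chromosome end or just beyond. Eomesa_peak3341 (chromosome 21, 44232235 to 44232578) had 75 Eomesa, 19 Smad2 and 109 input tags and lay 0.311 Mb from the end. Eomesa_peak5938 (chromosome 9, 455454 to 456401) had 62, 23 and 108 tags and lay 0.455 Mb from the end. Eomesa_peak4710 (chromosome 5, 3271687 to 3272524) had 78, 42 and 94 tags and lay 3.27 Mb from the end. The ratio of Smad2 to input in them was between 0.259 and 0.569.

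Some strong lone peaks had a counterpart elsewhere in the genome with closely matching tracks. Reads that mapped to as many as 2 places were kept by the authors, so that a sequence present in 2 places in the assembly can give matching tracks. Counterparts were sought by comparing each peak of 10 tags or more with all others over 600 bp, in either orientation, and were accepted where the Eomesa tracks correlated above 0.95 and where, in each of the 3 tracks, the mean absolute difference per position was at most 10% of the mean. There were 14 strong lone peaks with a counterpart (5.22%, 3.14 to 8.58), against 2.36% of all Eomesa peaks of 10 tags or more, and they formed 7 pairs. Both peaks of each pair were strong lone peaks, so the 14 are not separate and the interval is too narrow. A limit of 10% is also harder to meet with few tags, so the share may depend on height, which the rule used. The part of height in this share was not tested. Eomesa_peak1996 (chromosome 17, 27549194 to 27550305) and Eomesa_peak2000 (chromosome 17, 27752467 to 27753578) lay 203 kb apart and both had 76 Eomesa, 33 Smad2 and 18 input tags. Eomesa_peak1996 carried the listed site atgATTACACA, with the core again in capitals.

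**Figure D5:**
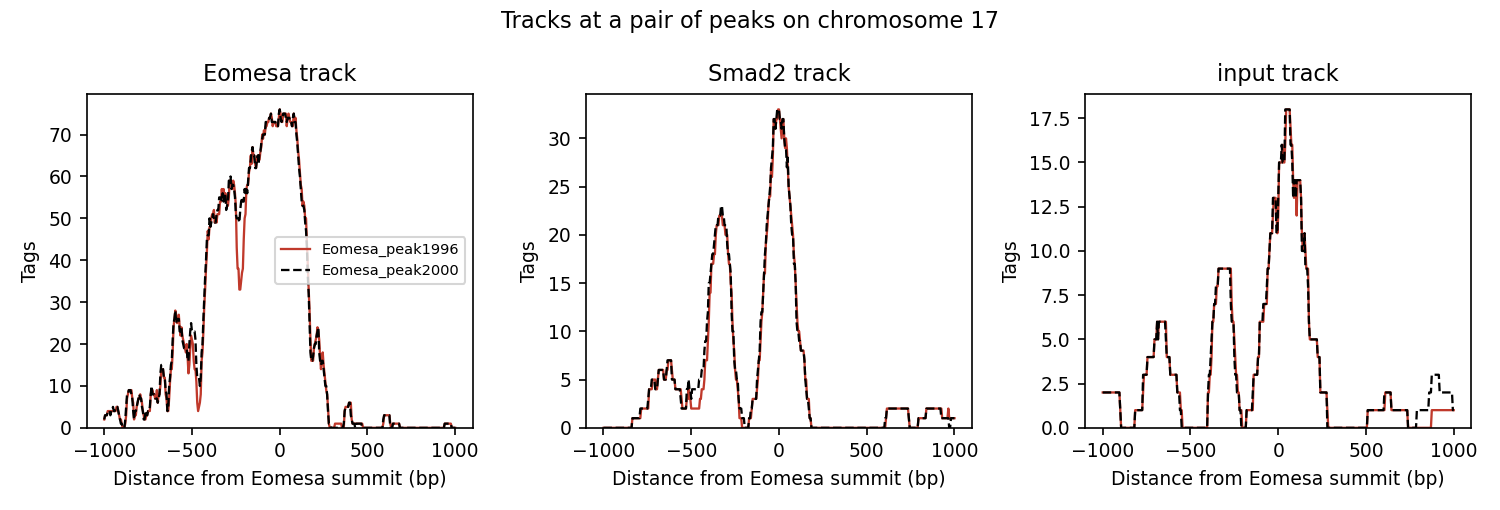
Tags in the Eomesa, Smad2 and input tracks within 1000 bp of the summits of Eomesa_peak1996 (red) and Eomesa_peak2000 (black, dashed), each track on its own vertical axis. The lines coincide over most of the window, at 76 Eomesa, 33 Smad2 and 18 input tags at the highest point in the peaks.

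Near the start of chromosome 18 lay a further pair of pairs. Eomesa_peak2119 (26068 to 26435) and Eomesa_peak2120 (33178 to 33545) were identical in all 3 tracks, with 62 Eomesa, 78 Smad2 and 78 input tags, the highest Smad2 heights of any strong lone peak. Eomesa_peak2121 (47372 to 47500) and Eomesa_peak2122 (48208 to 48336) had 68 and 69 Eomesa tags, with 48 Smad2 and 45 input tags in each. Their Smad2 to input ratios were 1.499 in the first pair and 1.74 and 1.73 in the second. Eomesa_peak1411 and Eomesa_peak6378, which had no counterpart, came between both pairs in Smad2 height, with 54 and 50 Smad2 and 22 and 33 input tags. Other pairs joined chromosomes 20 and 5 (Eomesa_peak3105 and Eomesa_peak4700), chromosomes 25 and 4 (Eomesa_peak3978 and Eomesa_peak4659), and, for Eomesa_peak5137 and Eomesa_peak5155 on chromosome 6, an unplaced sequence each. Whether the same reads were counted at both places of a pair cannot be read from the tracks, so a pair is not a repeated observation.

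Neighbouring peaks were counted next. Another Eomesa peak lay within 10 kb of 106 of 268 strong lone peaks (39.6%, 33.9 to 45.5), against 35.4% of all Eomesa peaks, while the share was 41 of 65 (63.1%, 50.9 to 73.8) in strong common peaks. The share in strong lone peaks was close to that in Eomesa peaks at large, and its interval lay below that of strong common peaks. Strong lone peaks within 10 kb of each other formed 13 clusters with 29 regions, 11 of them pairs. The cluster of 3 was made up of Eomesa_peak4595, Eomesa_peak4598 and Eomesa_peak4600 on chromosome 4, the last pair with 57 Eomesa, 40 Smad2 and 26 input tags each. This pair was also alike in width (78 bp each) and in ratio (2.49 and 2.52), but did not meet the limits set for a counterpart. Whether its regions share a sequence was not tested, so they may not be separate observations.

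A Smad2 peak lay within 10 kb, without a shared base, in 18 of 268 strong lone peaks (6.72%, 4.29 to 10.4), against 5.17% of all lone peaks. The nearest Smad2 peak was at a median distance of 486 kb. Eomesa_peak4148 (chromosome 3, 12457356 to 12458025) lay only 76 bp from one, with 51 Eomesa, 8 Smad2 and 5 input tags and a ratio of 2.65. Eomesa_peak1411 (chromosome 15, 308938 to 309990) lay 427 bp from one and had 46 Eomesa, 54 Smad2 and 22 input tags, which is a Smad2 signal of the height of called peaks inside a region that shares no base with the call. Eomesa_peak4868 (chromosome 5, 38214775 to 38215344) lay 1.04 kb from one, with 47, 12 and 23 tags. The separation of lone from common peaks by shared bases therefore left a few sites where both factors were called side by side. Among the Smad2 peaks within 10 kb, the study names cxcr4b, a chemokine receptor, near the one 4999 bp from Eomesa_peak5990. It names ephb4a, an Eph receptor of the vasculature, near the one 6.87 kb from Eomesa_peak5000. These names were chosen after their values were seen.

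Genes near the strong lone peaks are known here only for the 72 regions in the held portion of the study's list, of which 37 had a gene whose start lay within 10 kb (51.4%, 40.1 to 62.6), against 41.8% of all lone peaks in the held portion, a share inside that interval. Developmental genes drawn from lists of mesendodermal, ectodermal and signalling genes stood near 6 of the 72 (8.33%, 3.88 to 17.01), against 3.09% of all lone peaks in the held portion, and the interval rests on these 6. The share was 4 of 27 strong common peaks (14.8%, 5.92 to 32.5) and 16 of 96 weaker peaks that met a Smad2 peak (16.7%). Nearness to listed genes was thus not particular to strong lone peaks. The lists were drawn up with earlier results of these data known. Eomesa_peak1311 (chromosome 14, 31411969 to 31412762) lay near her5 and her11, which encode Hairy-related repressors of the midbrain-hindbrain boundary, and had 61 Eomesa, 21 Smad2 and 15 input tags. Eomesa_peak285 (chromosome 10, 8709632 to 8710390) lay near aplnrb, an apelin receptor needed for the movement of mesendodermal cells, and had 55, 19 and 17 tags. Eomesa_peak1506 (chromosome 15, 19432416 to 19433003) lay near dlc, which encodes the Notch ligand DeltaC of the segmentation clock, and had 52, 18 and 21 tags with a ratio of 1.43. A Smad2 peak lay 21.0 kb from it.

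The last 2 of the 6 by height stood at the threshold itself. Eomesa_peak123 (chromosome 1, 28800394 to 28800763) lay near zic2b, a zinc finger factor of the neural plate, and had 44 Eomesa, 15 Smad2 and 14 input tags. A Smad2 peak was 10.4 kb away, just beyond the distance used above. Eomesa_peak577 (chromosome 11, 19132184 to 19132631) lay near id1, an inhibitor of basic helix-loop-helix factors that responds to BMP signals, and had 44, 17 and 16 tags. The Smad2 peak 4.01 kb from it is listed near id1 as well. Across the 6 peaks the Smad2 to input ratio was 1.27 to 3.21, and reached 2 in Eomesa_peak628 and in Eomesa_peak285 (2.06).

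Other genes beside strong lone peaks, named after their values were seen, included other transcription factors. Eomesa_peak92 on chromosome 1 lay near pax5, a paired box factor of the midbrain-hindbrain boundary, with 52 Eomesa, 10 Smad2 and 5 input tags and a ratio of 3.41, and carries the listed site gctAATAAACA. Eomesa_peak1989 on chromosome 17 lay near grhl3, a Grainyhead-like factor of the epidermis, with 55, 14 and 7 tags and a ratio of 2.88. A Smad2 peak 3.15 kb from it is listed near grhl3 too. Eomesa_peak170 on chromosome 1 lay near irf2a, of the interferon regulatory factor family, with 60, 13 and 13 tags and a ratio of 2.18, and carries aaaAATCAACA. The tallest peak of the 72, Eomesa_peak248 at 78 tags, lay near zgc:66455. Whether any of these genes responds to Eomesa was not examined in these files.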

How the data were processed

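The authors performed ChIP-seq on AB strain zebrafish embryos at high-sphere stage, with 2 reactions each for Eomesa, Smad2 and input (6 samples, grouped by their titles). The authors mapped reads to the Zv9 build with Bowtie, kept reads with up to 2 places, and called peaks with MACS (mfold 8, p-value limit 1e-04) against paired input. Deposited lists hold regions found in both reactions, with a width for each and no height. The deposited coverage signal is the MACS pileup of shifted tags every 5 bp, not scaled to depth. Whether a track merges both reactions, and which input the input track is, is not given in the sources used here, nor are tool versions.

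Starts are given 1-based, as the deposited start plus 1. For each Eomesa peak the height (highest value inside), the mean over the interval divided by the mean of the track, the mean over 200 bp at the summit, the ratio of Smad2 to input, gaps to other peaks and the distance to the nearest end of the chromosome were computed (Python 3.11.15, numpy 2.4.6, pandas 2.3.3, scipy 1.17.1, matplotlib 3.10.9). The length of a chromosome is its furthest covered base. Depth was estimated as summed signal over tag length. Regions are not replicates, so no test was run, and shares carry 95% Wilson intervals. The limit beside a count of 0 is 3 counts of the total. Both cover counting error only. Computation was checked on simulated tracks.

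The regions, gene lists and limits were chosen with earlier results of these data known. Peaks were named by rule: the 10 tallest (ties by summed signal), the 3 highest and 3 lowest in Smad2, the 3 nearest to a Smad2 peak, the 3 of highest input, those just inside and outside the threshold, the largest cluster, and those near listed genes, the exceptions being stated. Of the 3 on either side of the threshold, 1 each is described. Gene names and Foxh1 sequences come from the study's supplementary list, used for names and sequences only. A search for T-box, Smad and Foxh1 motifs had been planned but was left out for want of a Zv9 genome. No file column was left unassigned to a group.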

Additional observations from a re-analysis of the deposited data

How the results depend on the processing

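Of 70 alternatives over 8 results, 52 stayed close to the reported value and 18 moved. Close means within the 95% interval of a share or median, and, for the number of regions, within 1.5 times of it. No paired analysis was possible because each group had 1 list and 1 track without replicate labels, so that no replicate could be left out either. Leaving out regions with a counterpart, leaving out the 64 regions of highest input, and all alternatives for the chromosome ends were chosen after seeing the data. With a height limit of 60 tags the median Smad2 signal was 6.102 times the mean, the share at 2 times input 26.4%, the width 618 bp and the share near chromosome ends 34.5%. Without the regions of highest input these were 4.72 for Smad2 and 38.7% for 2 times input, with an input height of 12 tags and 15.5% near ends. The Smad2 signal was 6.47 at the summit and 11.1 as the highest value. At limits of 1.5 and 3 times input the share was 48.9% and 13.1%. Another Eomesa peak lay within 5 kb of 32.1% and within 20 kb of 47.8%, and a Smad2 peak within 20 kb of 13.4%. The stretch at 22 tags or above measured 225 bp, input as a mean was 3.82 times its track mean, a unit that cannot be set against tags, and 12.1% lay within 1 Mb of an end. The number of regions was 252 to 266 under the alternatives that kept the threshold and all inputs, 204 without the highest input, and 353 or 184 at thresholds of 40 or 50 tags. Depth limits the lowest signals: 23 regions had 5 input tags or fewer, where a ratio rests on few tags. Input had the tag length of Smad2, not that of Eomesa.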
